A study of Mus musculus with 8 samples.

Results

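Complement genes were examined in cultured pericytes from mouse brain, the mural cells that wrap capillaries. The 9 genes were *C3*, *C4b*, *C1ra*, *C1s1*, *Serping1*, *Cfb*, *Cfd*, *Masp1* and *Cd55*, chosen by name as components and regulators of complement, and all 9 were found among the 54532 gene identifiers of the count files. RNA-seq covered 8 primary cultures of wild-type (WT) brain pericytes, of which 4 received TGF-β1, a secreted cytokine, at 5 μg mL−1 and 4 received vehicle, and all were sampled at 48 h. Labels number the vehicle cultures 1 to 4 and the TGF-β1 cultures 5 to 8, whereas the study's methods describe 4 independent isolates that received both, so the groups were compared unpaired and the p-values measure the spread between these samples. The comparison asks how TGF-β1 changes gene expression in pericytes. No strain, age or sex was given for these cultures in the sources used here, and the cells had been expanded on collagen-coated plates through several passages.

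Complement is a proteolytic cascade of plasma and tissue proteins that tags and lyses targets. In the classical pathway C1q binds a target and switches on the proteases C1r and C1s, which cleave C4 and C2, while in the lectin pathway collectins, ficolins and mannose-binding lectins do the same through the MASP proteases. Both routes, and the alternative pathway of factor B and factor D, converge on the cleavage of C3, and inhibitors in the fluid phase and on the membrane hold the cascade in check. In the brain, complement proteins are best known for opsonising synapses and debris for microglia.

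TGF-β1 cultures had less *C3*, *C4b*, *C1ra* and *Serping1* RNA and more *C1s1*, *Cd55* and *Masp1* RNA than vehicle cultures. The largest change was the decrease of *C3*, from 448 ± 12.7 to 278 ± 13.1 CPM (counts scaled to a common library size with TMM factors, SD, n = 4 in each group), and *C1s1* rose from 121 ± 3.27 to 167 ± 4.76 CPM. *Cfb* was not called, and *Cfd*, with 0 to 6 counts in a culture, was too low to be tested. Of the 9 genes, 8 passed the count filter, 3 were higher and 4 were lower by edgeR (quasi-likelihood, threshold of 0.05 after Benjamini-Hochberg adjustment over 22544 genes). Among all genes tested, 41.3% were called, 20.9% higher and 20.3% lower. The 2 groups of cultures did not overlap for 6 of the 8, and 37.9% of all genes tested had groups that did not overlap. The median log2 fold change of the 8 was -0.18, beside -0.01 over all genes tested, and the median size of a change, whatever its direction, was 0.31 beside 0.18. Because RNA was taken from whole cultures, fewer cells of a type and less RNA per cell cannot be told apart.

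**Figure D1:**
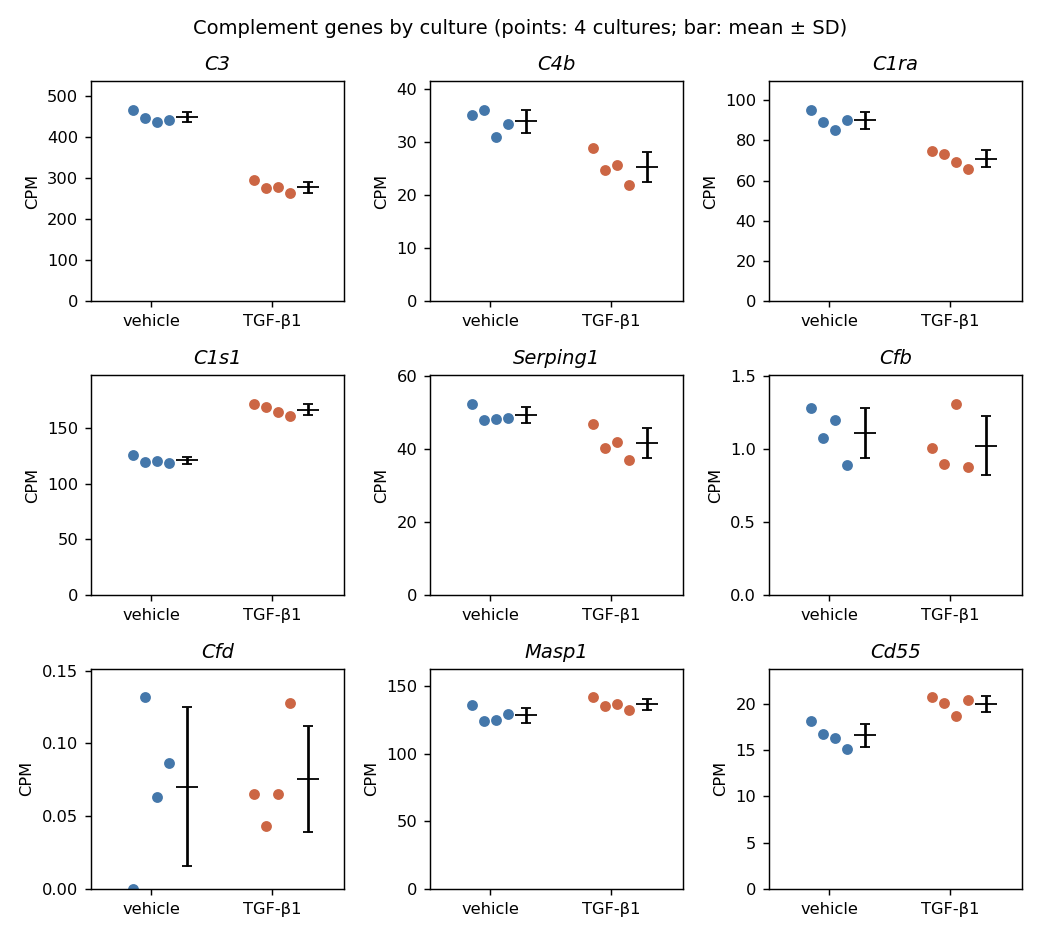
CPM of each of the 9 genes (y axis from 0) in the 4 vehicle and 4 TGF-β1 cultures, with every culture as a point and the mean ± SD as a bar. The TGF-β1 points lie below the vehicle points for *C3*, *C4b*, *C1ra* and *Serping1*, above them for *C1s1* and *Cd55*, and among them for *Cfb*, *Cfd* and *Masp1*.

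Depth ranged from 45255235 to 47651397 counts per culture with no difference detected between the groups (exact two-sided permutation test, p = 0.857), which puts 3 counts at 0.0631 to 0.0658 CPM. Summed pericyte markers were 418 to 439 CPM in vehicle and 578 to 601 CPM in TGF-β1 cultures (10 genes, 7 tested, 3 higher, 2 lower), but *Kcnj8*, *Abcc9* and *Vtn* stayed at or under 9 counts in every culture. *Pdgfrb* (198 to 210 and 289 to 294 CPM), *Cspg4* (79.9 to 86.0 and 163 to 176 CPM) and *Mcam* were higher. *Rgs5* (7.98 to 9.09 and 1.92 to 2.47 CPM) and *Anpep* were lower, and *Notch3* and *Des* were not called. Fibroblast markers summed to 4413 to 4584 and 5806 to 6070 CPM (8 genes, 7 tested, 4 higher, 2 lower). Most of the fibroblast sum was *Col1a1* and *Col1a2*, both higher, as were *Col6a3* and *Mfap5*. *Fbln1* and *Dcn* were lower, *Pdgfra* was not called and *Lum* had at most 6 counts. Macrophage and microglia markers summed to 9.37 to 10.2 and 11.2 to 12.7 CPM (14 genes, 8 tested, 1 higher), with *C1qa*, *C1qb*, *C1qc* and *Tyrobp* at 0 to 2 counts. Astrocyte markers summed to 251 to 263 and 227 to 239 CPM (8 genes, 7 tested, 2 higher, 2 lower), with *Aqp4* at no more than 6 counts. Most of the astrocyte sum was *Gja1* (187 to 199 and 179 to 195 CPM, not called). *Slc1a2* and *S100b* were lower, whereas *Slc1a3* and *Aldh1l1* were higher. These 4 sums differed at the smallest p that an exact two-sided permutation test of 4 against 4 cultures can give, 0.0286. Endothelial markers summed to 477 to 489 and 480 to 505 CPM (10 genes, 7 tested, 2 higher, 1 lower, exact permutation p = 0.143), with *Tie1* and *Cldn5* at no more than 10 counts. *Cdh5* made up most of the endothelial sum (368 to 383 and 349 to 378 CPM), while *Pecam1* had a mean of 1.11 CPM over all cultures. The part of these marker shifts in the complement values below was not tested.

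To show the DNA next to the start of the gene that fell most and of the 2 that rose most, 250 bases upstream of *C3* (chr17:57228137-57228386, − strand), *C1s1* (chr6:124542360-124542609, − strand) and *Cd55* (chr1:130462745-130462994, − strand) were taken from RefSeq on GRCm38.p6, the assembly of the mm10 build the reads were aligned to. RefSeq windows matched 5 of the 9 genes, and those of *C1ra* and of a second *C1s1* start run into annotated exons and are not shown. Each is written 5′ to 3′ on the gene's own strand, and capitals mark a match to a motif of C/EBP, a transcription factor family of the acute-phase response.
C3: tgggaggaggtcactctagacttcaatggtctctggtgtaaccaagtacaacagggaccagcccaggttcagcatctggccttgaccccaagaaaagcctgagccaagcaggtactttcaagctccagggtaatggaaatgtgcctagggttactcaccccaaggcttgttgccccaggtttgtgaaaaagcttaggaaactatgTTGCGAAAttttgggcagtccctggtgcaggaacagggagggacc
C1s1: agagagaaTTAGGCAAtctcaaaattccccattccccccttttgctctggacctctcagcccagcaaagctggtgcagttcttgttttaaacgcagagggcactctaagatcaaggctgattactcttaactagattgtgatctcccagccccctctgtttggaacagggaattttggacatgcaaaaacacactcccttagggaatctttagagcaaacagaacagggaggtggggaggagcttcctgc
Cd55: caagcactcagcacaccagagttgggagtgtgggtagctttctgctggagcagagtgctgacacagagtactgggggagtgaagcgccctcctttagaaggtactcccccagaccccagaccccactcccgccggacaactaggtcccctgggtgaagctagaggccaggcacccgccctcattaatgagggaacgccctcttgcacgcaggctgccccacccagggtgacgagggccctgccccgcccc
The motifs searched on both strands were TTGCNNAA for C/EBP, GGGANTTTC for NF-κB, TTCNNNGAA for STAT factors (a GAS site), TGANTCA for AP-1 and GTCTAGAC for SMAD proteins, none of which is contained in another. *C3* held 1 C/EBP match, TTGCGAAA, 45 to 38 bases before its start, and *C1s1* held 1, TTAGGCAA on the printed strand, 242 to 235 bases before its start. The *Cd55* window held no match to any of the 5 motifs as written in full. Shorter or looser forms, such as parts of the SMAD motif, were not searched, so sites of that kind may be present in any window. C/EBP letters of this kind occur in 9.56% of 32851 RefSeq windows of the same length, and the other shares were 0.941% for NF-κB, 7.02% for GAS, 6.75% for AP-1 and 0.167% for SMAD. A match describes letters and no binding was measured.

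*C3* (ENSMUSG00000024164, chr17:57203970-57228136 on GRCm38) encodes the central protein on which all 3 activation routes converge. The vehicle cultures measured 466, 447, 438 and 442 CPM and the TGF-β1 cultures 295, 275, 278 and 263 CPM. The TGF-β1 values were all under the lowest vehicle value, and the gap between the groups exceeded the range within either. The log2 fold change was -0.69 ± 0.027 (SE, 95% interval -0.75 to -0.64, adjusted p = 7.83e-22, edgeR), a decrease of 38.1%. Of all genes tested, 11.3% changed by more in either direction. None of the 50-base words in its exons occurs in another gene, so its reads can be assigned without a near-identical copy.

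*C4b* (ENSMUSG00000073418, chr17:34728380-34743882) encodes C4, the substrate that C1s and MASP2 cleave. It measured 35.1, 36.1, 31.0 and 33.4 CPM with vehicle and 28.8, 24.8, 25.7 and 22.0 CPM with TGF-β1. The groups did not overlap, although the nearest cultures, vehicle 3 and TGF-β1 5, lay close together. *C4b* fell by 0.42 ± 0.066 on the log2 scale (adjusted p = 4.73e-05, edgeR), or by 25.3%. Its paralog *C4a*, whose known protein is a variant of C4, is listed in the gene annotation used here as a processed transcript, not as protein-coding. *C4a* was near 3.70 ± 0.292 CPM with vehicle and 3.83 ± 0.474 CPM with TGF-β1 and was not called (adjusted p = 0.762, edgeR). Since 34.6% of the 50-base words of *C4b* also occur in another gene, mainly *C4a*, the 2 counts were also summed, and the sum gave -0.37 ± 0.071 (adjusted p = 0.000825, edgeR).

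The proteases of the C1 complex moved in opposite directions. *C1ra* (ENSMUSG00000055172, chr6:124512405-124523443, + strand) encodes C1r, which cleaves and activates C1s. Its vehicle cultures measured 95.2, 89.1, 85.1 and 90.1 CPM, and its TGF-β1 cultures 74.9, 73.3, 69.3 and 65.7 CPM. All TGF-β1 values were lower than all vehicle values, and the log2 fold change was -0.34 ± 0.036 (95% interval -0.42 to -0.27, adjusted p = 1.5e-09, edgeR). *C1s1* (ENSMUSG00000038521, chr6:124530345-124542359, − strand) encodes C1s, the protease that cuts C4 and C2. It measured 126, 119.7, 120.2 and 119.0 CPM with vehicle and 172, 169, 165 and 161 CPM with TGF-β1. Here every TGF-β1 culture was above every vehicle culture, and *C1s1* rose by 0.46 ± 0.027 on the log2 scale (95% interval 0.40 to 0.51, adjusted p = 7.71e-19, edgeR), which is 37.4%.

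The 2 genes lie on opposite strands with their 3′ ends 6.90 kb apart, in a cluster of 5 genes over 143 kb that also holds *C1rl*, *C1rb* and *C1s2*. Per kilobase of annotated exon, *C1s1* stood at 1.29 ± 0.040 times the level of *C1ra* in vehicle cultures (1.26, 1.28, 1.34 and 1.26) and at 2.24 ± 0.071 times in TGF-β1 cultures (2.19, 2.19, 2.26 and 2.34). This ratio within each culture does not depend on how the libraries were scaled. The close copies were hardly detected, with 3 to 15 counts for *C1rb* and 12 to 25 for *C1s2* (adjusted p = 0.293, edgeR). *C1rl*, a C1r-like protease encoded 1.76 kb from *C1ra*, fell by 0.30 ± 0.084 on the log2 scale, from 11.4 ± 0.600 to 9.25 ± 1.51 CPM, with groups that overlapped (adjusted p = 0.00416, edgeR), and without TGF-β1 8 it fell by 0.19 (adjusted p = 0.0457, edgeR). Shared sequence limits the assignment, since 50.8% of the 50-base words of *C1ra* and 35.1% of those of *C1s1* occur elsewhere, mainly in *C1rb* and *C1s2*. With the copies summed, the log2 fold changes were -0.34 for *C1ra* and 0.46 for *C1s1*, which copies with so few counts could hardly move. Reads that fit both copies may be missing from both counts, so the sums do not settle the assignment. An antisense gene, Gm16567, overlaps 18.4% of the *C1s1* exons and had 0 counts in all 8 cultures.

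*Serping1* (ENSMUSG00000023224, chr2:84765387-84775444) encodes the C1 inhibitor, the serpin that inactivates C1r, C1s and the MASP proteases. Values were 52.4, 47.8, 48.2 and 48.5 CPM with vehicle and 46.9, 40.2, 41.9 and 37.0 CPM with TGF-β1. The groups did not overlap, with TGF-β1 5 just under the lowest vehicle culture. The log2 fold change was -0.25 ± 0.056 (adjusted p = 0.00179, edgeR), a decrease of 15.6%. Its target *C1s1* rose at the same time, so the *C1s1* level per kb went from 1.83 ± 0.033 to 3.00 ± 0.223 times that of *Serping1*. By contrast, *C1ra* stood at 1.42 ± 0.036 and 1.33 ± 0.082 times the *Serping1* level, and the ranges of these 2 ratios overlapped.

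In the lectin pathway, *Masp1* (ENSMUSG00000022887, chr16:23449417-23520815) encodes the protease MASP1 and its splice forms, which gene counts cannot separate. The vehicle cultures measured 136, 124, 125 and 129 CPM and the TGF-β1 cultures 142, 135, 137 and 132 CPM. Vehicle 1 lay within the TGF-β1 range, so the groups overlapped. The rise of 0.09 ± 0.029 on the log2 scale, or 6.21%, had an adjusted p of 0.0119 (edgeR), and without the culture TGF-β1 5 it was 0.07 with an adjusted p of 0.0804. Its relative *Masp2* was at 1.66 ± 0.140 and 1.56 ± 0.278 CPM and was not called (adjusted p = 0.712, edgeR). On the opposite strand, the neighbouring gene *Tardbp* overlaps 54.9% of the *Masp2* exon length.

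Factors B and D of the alternative pathway had low counts. *Cfb* (ENSMUSG00000090231, chr17:34856374-34862518), which encodes factor B, the protease of the alternative pathway convertase, had 41 to 60 counts in a culture. This gave 1.28, 1.07, 1.20 and 0.888 CPM with vehicle and 1.00, 0.893, 1.31 and 0.872 CPM with TGF-β1, with intermingled groups. Its log2 fold change of -0.12 ± 0.206 had a 95% interval from -0.54 to 0.29 and an adjusted p of 0.679 (edgeR). A read-through gene on the same strand, Gm20547, covers 79.5% of the *Cfb* exon length and had 0 counts in every culture. It also covers 42.8% of the exon length of *C2*, which had 360 to 525 counts. Reads in the shared exons were therefore not counted for Gm20547. If they were not counted for *Cfb* either, its values rest on the remaining 20.5% and understate its RNA. *Cfd* (ENSMUSG00000061780, chr10:79890853-79892655), which encodes factor D, the protease that cleaves factor B, had 0, 6, 3 and 4 counts with vehicle and 3, 2, 3 and 6 with TGF-β1. These lie at or near the floor of 3 counts, and a difference was not detectable at this depth.

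*Cd55* (ENSMUSG00000026399, chr1:130439027-130462744) encodes decay-accelerating factor, a membrane inhibitor that dissociates the C3 convertases. It measured 18.1, 16.7, 16.3 and 15.1 CPM with vehicle and 20.7, 20.04, 18.7 and 20.3 CPM with TGF-β1. Every TGF-β1 culture was higher than every vehicle culture, although TGF-β1 7 and vehicle 1 were close. The log2 fold change was 0.27 ± 0.056 (95% interval 0.16 to 0.38, adjusted p = 0.000101, edgeR), a rise of 20.4%. The copy *Cd55b* had 2 to 7 counts in a culture, and summing the 2 gave 0.27, which so few counts could hardly move.

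**Figure D2:**
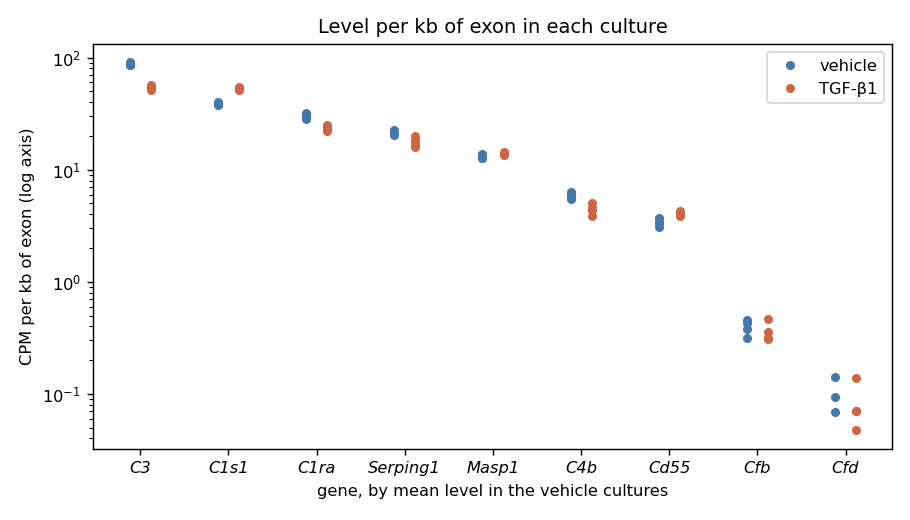
CPM per kb of exon (log axis) of the 9 genes in each culture, ordered by their mean in the vehicle cultures, where *Cfd* in vehicle 1 has 0 counts and is not drawn. *C3* leads in vehicle at 87.2 and meets *C1s1* at about 54.0 and 53.3 in TGF-β1 cultures.

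Compared per kilobase of exon, the 9 genes covered a wide range of levels. In vehicle cultures the order was *C3* at 87.2 ± 2.47 CPM per kb, *C1s1* at 38.8 ± 1.05, *C1ra* at 30.1 ± 1.39, *Serping1* at 21.2 ± 0.922, *Masp1* at 13.1 ± 0.549, *C4b* at 5.95 ± 0.387, *Cd55* at 3.41 ± 0.254, *Cfb* at 0.393 ± 0.060 and *Cfd* at 0.076 ± 0.059. No neighbours in this order had overlapping ranges. Lengths were of all merged exons, including splice forms as in *Masp1*, with no allowance for shared sequence in *C1ra*, *C1s1*, *C4b* and *Cfb*. The *Cfb* length includes the 79.5% shared with Gm20547, so its level per kb is too low if shared reads were not counted. The order between genes could thus change with another measure of length. In TGF-β1 cultures the means kept this order, but *C3* at 54.0 ± 2.55 and *C1s1* at 53.3 ± 1.52 overlapped, as did *C4b* at 4.45 ± 0.494 and *Cd55* at 4.11 ± 0.178. The share of *C3* in the summed level of the 9 genes was 43.3% to 43.8% in the vehicle cultures and 31.1% to 31.6% in the TGF-β1 cultures. That sum was 195 to 209.6 CPM per kb with vehicle and 163 to 182 CPM per kb with TGF-β1.

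**Figure D3:**
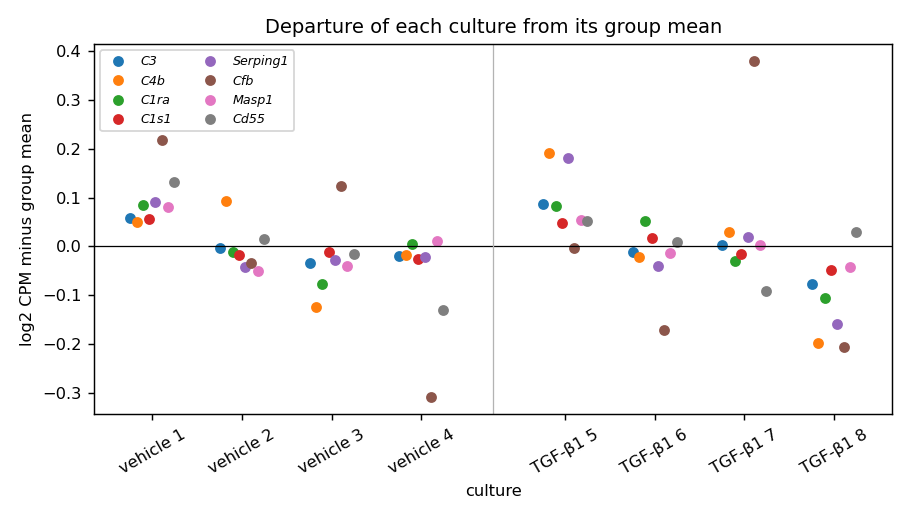
Departure of each culture from its group mean (log2 CPM, y axis) for the 8 tested genes, 1 colour per gene. All 8 points of vehicle 1 lie above 0, 7 of 8 do in TGF-β1 5, and 7 of 8 lie below 0 in TGF-β1 8.

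Departures from the group mean were counted in each culture for the 8 tested genes. Vehicle 1 was above its group mean for all 8, by a median of 0.08 on the log2 scale, and TGF-β1 5 was above for 7, by a median of 0.07. TGF-β1 8 was below for 7 of 8, with a median deviation of -0.09. Over all genes tested, the median deviation was 0.002 in vehicle 1, 0.003 in TGF-β1 5 and -0.002 in TGF-β1 8. *C4b* and *Serping1* spread most among the well-measured genes in TGF-β1 cultures, with coefficients of variation of 11.1% and 9.95%, against 2.86% for *C1s1*. In vehicle cultures *C4b* and *Serping1* had 6.51% and 4.36%.

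To place the 9 genes in their pathway, 54 other complement genes were examined. Of these, 34 were tested, 6 were higher, 15 were lower and 13 were not called, so that 61.8% were called beside 41.3% of all genes tested. Over all genes tested, 20.9% were higher and 20.3% lower. The median log2 fold change of the 34 was -0.18, beside -0.01 over all genes tested. None of the 20 untested genes exceeded 15 counts in a culture. The recognition subunits of C1 were among them, with *C1qb* at 0 counts in all 8 cultures, which allows up to 3 counts in each, and *C1qa* and *C1qc* at no more than 2. *C1ra* and *C1s1* were thus measured at 22.0 to 55.0 CPM per kb in cultures in which the C1q genes were at or near 0.

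**Figure D4:**
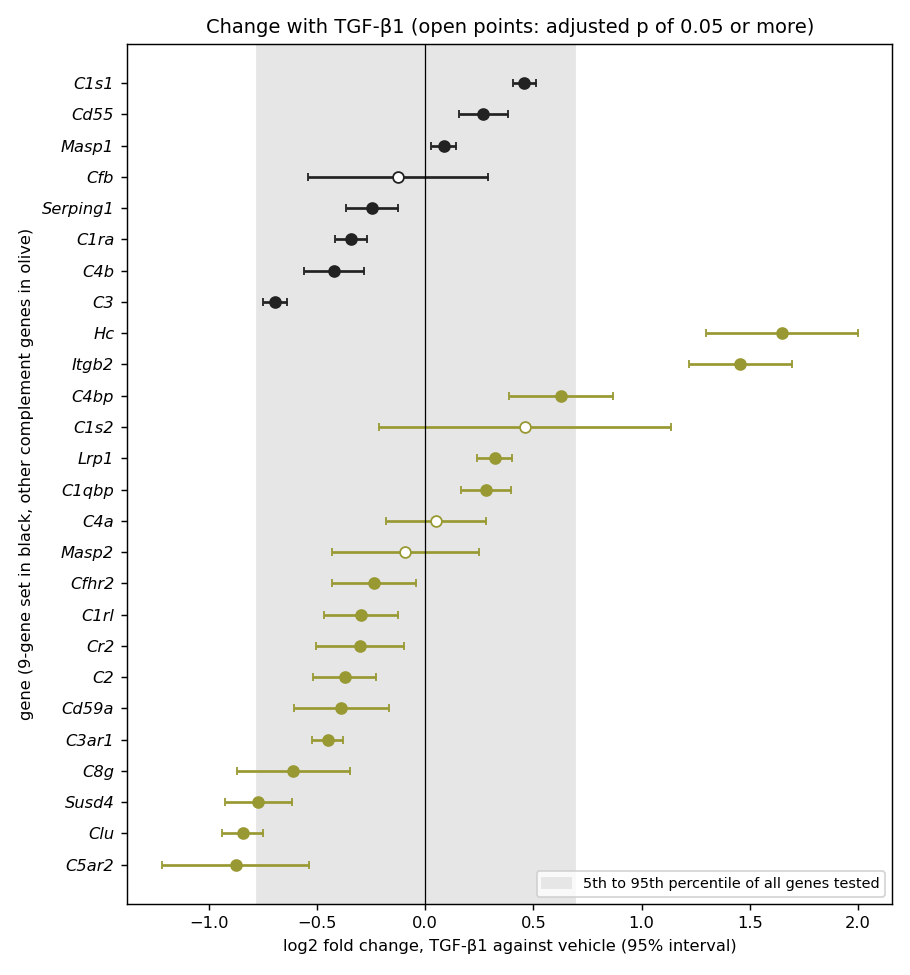
Log2 fold change with its 95% interval (x axis) for the 8 tested genes in black and 18 other tested complement genes in olive, with open points for adjusted p of 0.05 or more and a grey band for the 5th to 95th percentile of all genes tested (-0.78 to 0.69). All 8 genes in black lie inside the band, while *Hc* and *Itgb2* lie beyond it on the right and *Clu* and *C5ar2* on the left.

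Among the 16 other genes of classical and lectin initiation, 8 were tested, 0 were higher and 4 were lower. The share called, 4 of 8, was near the 41.3% over all genes tested, where 20.9% were higher and 20.3% lower. *C2*, the protease subunit of the C3 convertase, fell by 0.37 ± 0.072 on the log2 scale, from 10.4 ± 0.646 to 8.08 ± 0.309 CPM (adjusted p = 3.53e-05, edgeR). It lies 85 bases from *Cfb*, and Gm20547 and *Zbtb12* together overlap 46.9% of its exon length. The others that were lower were *C1rl*, given above, and the collectins *Colec11* (-1.85, with 8 to 44 counts) and *Colec12* (-0.21), both named after their values were seen. In the alternative and terminal list of 8 genes, 3 were tested and all were called, 1 higher and 2 lower, beside the same 41.3%. *Hc*, which encodes C5, rose by 1.65 ± 0.173 on the log2 scale, from 0.866 ± 0.223 to 2.73 ± 0.285 CPM (adjusted p = 6.5e-11, edgeR). *C8g*, a subunit of C8, was lower (-0.61), as was properdin, *Cfp* (-0.20, named after its values were seen). The remaining pore-forming genes *C6*, *C7*, *C8a*, *C8b* and *C9* had at most 12 counts in any culture.

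Regulators other than *Serping1* and *Cd55* are given beside the shares over all genes tested, 20.9% higher and 20.3% lower. Of 9 fluid-phase regulators, 5 were tested, 1 was higher and 3 were lower. The chaperone clusterin, *Clu*, went from 39.1 ± 1.68 to 21.8 ± 1.64 CPM (log2 fold change -0.84 ± 0.047), while *C4bp* rose from 2.72 ± 0.314 to 4.21 ± 0.368 CPM (0.63 ± 0.119). *Cfhr2* was lower by a narrow margin (-0.24, adjusted p = 0.0436, edgeR), shares 29.2% of its 50-base words with other genes, and lost its call in DESeq2 (adjusted p = 0.0874). Of 10 membrane regulators, 9 were tested, 1 was higher and 3 were lower, so that 44.4% were called, near the 41.3% over all genes tested. The lower ones were *Susd4* (-0.77), *Cd59a* (-0.39) and *Cr1l* (-0.11, named after its values were seen), while *C1qbp*, a mitochondrial protein that binds C1q, rose (0.28). *Cd55* thus moved up in cultures in which *Susd4* and *Cd59a* were lower.

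Of the 11 receptor genes, 9 were tested, 3 were higher and 3 were lower, so that 66.7% were called, beside 41.3% over all genes tested. The anaphylatoxin receptor *C3ar1* went from 56.0 ± 1.498 to 41.0 ± 1.16 CPM (-0.45 ± 0.035). The C5a receptor *C5ar1*, named after its values were seen, had 0 to 8 counts in a culture and was not tested. *C5ar2*, which also encodes a C5a receptor, went from 2.14 ± 0.338 to 1.17 ± 0.136 CPM (-0.88 ± 0.169). *Cr2* was lower too (-0.30), but was no longer called without vehicle 2 (adjusted p = 0.0733, edgeR) or without TGF-β1 8 (adjusted p = 0.0688, edgeR). *Itgb2*, the β chain of the complement receptors CR3 and CR4, rose from 2.03 ± 0.253 to 5.59 ± 0.460 CPM (1.46 ± 0.118), and its α chains *Itgam* and *Itgax*, at 7 to 25 counts in a culture, were not called. Gm49368 overlaps 68.7% of the *Itgam* exon length on the same strand, so shared reads may be missing from the *Itgam* count. The macrophage and microglia markers given above, which include *Itgam*, were also higher in sum, and their part in the *Itgb2* value was not tested. *Lrp1*, a scavenger receptor, was higher (0.32), as was *Calr* (0.11, named after its values were seen).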

How the data were processed

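The authors aligned reads to mm10 with STAR 2.7.5c, used SAMtools 1.15 to remove duplicates and assigned reads to genes with featureCounts 2.0.3. They deposited raw counts, 1 library per culture, with no normalization. The strand setting, annotation release and treatment of shared reads are not given in the sources used here. Illumina's stranded total RNA kit was used.

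Of 54532 identifiers, 54495 had a symbol and position in GENCODE M21 (GRCm38). edgeR 4.0.16 (R 4.3.3) was run on all 8 cultures without covariates: filterByExpr, TMM, robust quasi-likelihood fit, and Benjamini-Hochberg adjustment over 22544 genes at a threshold of 0.05. The standard error was the log2 fold change over the square root of F. Level per kb was CPM over merged exon length. Single values had exact two-sided permutation tests. Code was tested on simulated counts.

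Alternatives were DESeq2 1.42.0 (the study's tool), 3 scalings, 2 count filters, halved counts, paralogs summed, and each culture left out; summing *Cfb* with Gm20547 was added after seeing the data. The 9 genes and all lists were chosen with earlier results of these data known. Named genes were the 9, the paralogs *C4a*, *C1rb*, *C1rl*, *C1s2*, *Masp2* and *Cd55b*, and the 15 others with the largest changes among those with an adjusted p under 0.05 and a mean of at least 1 CPM, of which 1 is not reported here. Low counts (1 to 20) were even in 68.5% to 70.2% of cases, so both mates of a pair may have been counted.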

Additional observations from a re-analysis of the deposited data

Results flagged for a closer look

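Each group of 4 cultures was examined for a single culture apart from the rest, by whether its gap to the nearest culture, as a share of the group's range, passed Dixon's 95% critical value. Of 54 groups of values over the named and tested complement genes, 5 passed, where chance passes about 1 in 20, or 2.7. *C1s1* in vehicle 1 was 126 CPM, and the nearest vehicle culture was 120.2 CPM. *Serping1* in vehicle 1 was 52.4 CPM beside 48.5 CPM. Both lay on the high side of vehicle 1, where all 8 tested genes were above the group mean. *Cd59a* in vehicle 1 was low, at 3.97 CPM beside 4.45 CPM. *Cd59a* in TGF-β1 6 was high, at 3.68 CPM beside 3.27 CPM. *Masp2* in vehicle 2 was 1.86 CPM beside 1.61 CPM. Without vehicle 1, the log2 fold changes were 0.48 for *C1s1* and -0.21 for *Serping1*.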

How the results depend on the processing

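The counts of the 9 genes that were higher and lower stayed at 3 and 4 under DESeq2, DESeq2 size factors, library totals, upper-quartile factors, both count filters and halved counts. With each culture left out in turn they were 2 to 3 higher and 4 lower, the 2 without TGF-β1 5, where *Masp1* was not called. The other complement genes gave 6 higher under each of these and 13 to 17 lower, and the number of genes called over all ranged from 8559 to 9311. No result reversed. Among the 9 genes and the others named by the rule, calls were lost for *Masp1*, *Cr2* and *Cfhr2* only, the last under DESeq2 (adjusted p = 0.0874), under the looser count filter, 1 count in any culture (0.0563) and without vehicle 1, 2 or 3 or TGF-β1 6, 7 or 8 (edgeR, 0.0551 to 0.164). *Colec11*, *Colec12*, *Cfp*, *Cr1l* and *Calr* were not followed singly, and *Colec11*, with 8 counts in its lowest culture, drops out under the filter of 10 counts in every culture. The tested values ranged with a culture left out from -0.72 to -0.66 for *C3*, -0.49 to -0.35 for *C4b*, -0.38 to -0.30 for *C1ra*, 0.44 to 0.48 for *C1s1*, -0.31 to -0.19 for *Serping1*, -0.27 to -0.04 for *Cfb*, 0.07 to 0.12 for *Masp1* and 0.23 to 0.32 for *Cd55*. No paired analysis was possible because vehicle and TGF-β1 cultures share no replicate number. Depth limits *Cfb* and *Cfd*, and shared sequence limits *C4b*, *C1ra*, *C1s1* and *Cfb*.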
